A study of Saccharomyces cerevisiae with 12 samples.

Results

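The large (60S) subunit of the yeast ribosome is built by assembly factors, proteins that join the pre-ribosomal RNA in the nucleolus, fold and cleave it, guide the ribosomal proteins (RPs) into place and leave before the subunit translates. The 40 genes described here encode such factors and were chosen by name for their role in 60S assembly, with earlier results of these data known. The deposited table lists 7126 genes, of which 6572 were tested, and all 40 members were among them. Transcript levels were measured by RNA-seq in Saccharomyces cerevisiae with or without Ulp2, a protease that removes chains of the small protein SUMO, after about 50 or 500 generations (50G or 500G). Each of the 4 groups held 3 libraries, numbered 0, 1 and 2.

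All 4 groups shared 1 haploid background, MHY1379, with mutations in HIS3, LEU2, LYS2, TRP1 and URA3 and the chromosomal ULP2 gene replaced by HIS3. The WT groups carried ULP2 on the URA3 plasmid YCplac33, whereas the ulp2 null groups had lost that plasmid on 5-FOA and, per the study's methods, received the empty vector. The groups were WT 50G, WT 500G, ulp2 null 50G (nascent null cells) and ulp2 null 500G (passaged null cells). Per the study's methods, the null 50G cells had grown through plasmid loss and transformation, and long-term passaging was by daily dilution in rich medium (YPD). Genome sequencing in the study found a missense mutation in BUB1 in the passaged WT strain. In the passaged null strain it found missense mutations in IFM1 and in UBC9, which encodes the SUMO-conjugating enzyme. Passaging and such mutations cannot be told apart in these libraries. The study names its WT control as MHY1379 with the ULP2 plasmid, apart from cells to which ULP2 was reintroduced. Handling may thus have differed between the WT and null groups. RNA came from cells in mid-exponential growth. The labels do not say whether the 3 libraries of a group came from separate lines, so p-values measure the spread between these libraries, which may be technical.

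ULP2 lay at 206, 217 and 207 FPKM (fragments mapped per kilobase of transcript, scaled to the size of the library) in WT 50G and at 162, 174 and 202 in WT 500G. The ulp2 null libraries held at most 0.995 FPKM of it. The plasmid marker URA3 lay between 1523 and 2388 FPKM in the WT libraries and between 35.4 and 48.7 in the null libraries. The null libraries thus had little of the marker that an empty YCplac33 would also carry.

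Assembly factor genes are known as a coregulated group in yeast, the ribosome biogenesis (Ribi) regulon, which is distinct from the RP genes. Many Ribi promoters hold a PAC element, bound by the repressors Dot6 and Tod6, and an RRPE element, bound by Stb3. RP promoters are driven instead by Rap1, Fhl1 and Ifh1. Promoter windows reaching from 250 bases before to 50 bases after the start codon were read from the R64 genome of RefSeq, the build of the study's alignment, and searched on both strands for GATGAG (PAC) and AAAAATTTT (RRPE). No PAC match overlapped an RRPE match, although copies of the same element did overlap each other. PAC letters stood in 37 of the 40 member windows (92.5%) against 20.4% of 6007 windows of all genes, which include the members. RRPE letters stood in 31 (77.5%) against 6.99%. Both were found in 28 members, and each of the 40 had at least 1 of them. Matches before the start codon lay at a median first base of -119 for PAC (67 matches) and of -142.5 for RRPE (46 matches), counted from the first base of the start codon. Among the 81 large-subunit RP genes 8 windows held PAC and 4 held RRPE. PAC also stood in 90.9% of the windows of 55 40S assembly factors and in 81.1% of those of 53 other 60S assembly factors. RRPE stood in 61.8% and 45.3% of them, so the elements are not particular to the 40 members. A match is a description of the letters and not proof of a bound site.

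The 4 windows that follow show the elements in genes that moved in different directions, all on the plus strand. DRS1 (chrXII:131479-131778) and MRT4 (chrXI:425992-426291) rose in nascent null cells, and RPF1 (chrVIII:281245-281544) fell in them. RPP0 (chrXII:805637-805936), which encodes the ribosomal stalk protein that Mrt4 precedes on the particle, held neither element. Capitals mark PAC and RRPE letters, and adjoining copies run together.
DRS1: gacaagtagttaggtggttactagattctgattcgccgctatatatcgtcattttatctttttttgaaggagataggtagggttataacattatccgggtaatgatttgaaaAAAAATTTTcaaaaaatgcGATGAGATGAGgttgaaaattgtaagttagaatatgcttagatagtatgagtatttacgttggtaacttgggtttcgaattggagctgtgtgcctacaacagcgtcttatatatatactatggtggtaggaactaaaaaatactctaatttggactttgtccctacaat
MRT4: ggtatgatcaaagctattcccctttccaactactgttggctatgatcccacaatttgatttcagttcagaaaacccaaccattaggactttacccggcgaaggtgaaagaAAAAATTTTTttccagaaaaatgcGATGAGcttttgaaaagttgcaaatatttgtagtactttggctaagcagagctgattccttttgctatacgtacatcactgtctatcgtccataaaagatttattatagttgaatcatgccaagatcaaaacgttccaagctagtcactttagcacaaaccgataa
RPF1: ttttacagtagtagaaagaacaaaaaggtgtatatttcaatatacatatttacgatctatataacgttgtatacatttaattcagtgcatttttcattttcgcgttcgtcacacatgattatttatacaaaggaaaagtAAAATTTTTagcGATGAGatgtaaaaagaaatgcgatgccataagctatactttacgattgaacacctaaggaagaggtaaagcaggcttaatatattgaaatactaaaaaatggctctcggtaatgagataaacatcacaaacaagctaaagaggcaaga
RPP0: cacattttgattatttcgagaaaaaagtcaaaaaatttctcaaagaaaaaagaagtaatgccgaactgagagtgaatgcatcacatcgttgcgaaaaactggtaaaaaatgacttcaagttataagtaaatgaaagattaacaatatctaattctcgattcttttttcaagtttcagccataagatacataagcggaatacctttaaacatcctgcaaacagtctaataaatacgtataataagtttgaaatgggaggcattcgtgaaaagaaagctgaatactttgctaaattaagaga

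The members spanned a wide range of levels. Averaged over the 12 libraries, NOP16 was the highest at 216 FPKM, followed by TIF6 at 177, LOC1 at 147, EBP2 at 146 and RLP24 at 115. MAK5 at 14.8 and SSF1 at 12.6 were the lowest. The 40 together made up 0.169% ± 0.00951 of the summed FPKM of a WT 50G library (SD, n = 3), 0.155% ± 0.0161 in WT 500G, 0.175% ± 0.00985 in ulp2 null 50G and 0.147% ± 0.0229 in ulp2 null 500G. The large-subunit RP genes made up 11.3% ± 0.317, 11.0% ± 0.571, 16.4% ± 0.843 and 13.8% ± 0.557 in the same order. The spread of log2 values within groups had a median SD of 0.143 over the members, close to 0.142 over all tested genes, from 0.0569 for SPB4 to 0.360 for LOC1.

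Sequencing depth per library cannot be read from FPKM, and the summed FPKM itself ran from 1123497 to 1160554 in WT 50G, from 1365930 to 1539386 in WT 500G, 1083961 to 1198357 among nascent null libraries and 1376590 to 1449581 among passaged null libraries. Levels were compared as deposited on the scale log2(FPKM + 1), where a fold change of a low gene is understated. Scaling the libraries to an equal sum over genes that are not RP genes (equal-sum scaling) shifted the median gene by 0.11 in ulp2 null 50G against WT 50G, by -0.35 in WT 500G and by -0.25 in ulp2 null 500G against the same controls, by -0.36 between the null groups and by 0.11 between the 500G groups. It moved the median of the members by nearly the same amount, and the counts it gave stand beside the main counts. A single library, ulp2 null 500G replicate 0, stood apart. The members' median deviation from the mean of all libraries was -0.19 in it, the lowest of the 12. The other libraries of its group gave 0.01 and 0.15. For the 40S assembly factors (-0.20) and for all tested genes (-0.07) ulp2 null 500G replicate 0 was the lowest as well. Counts that rest on it are given with and without it.

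To ask what the loss of Ulp2 does to these genes, nascent null cells were compared with WT 50G. Of the 40 members 8 rose and 2 fell at an adjusted p under 0.05 (limma, Benjamini-Hochberg over all tested genes), where 18.7% of all tested genes rose and 18.1% fell. The share that rose (20%) was thus near the background, and the share that fell (5%) was below it. The median change of the members was 0.05 on the log2 scale, against -0.02 for all tested genes and 0.90 for the large-subunit RP genes, of which 75 of 81 rose. Equal-sum scaling gave 11 higher and 1 lower, where 1551 of 6576 tested genes were higher and 666 lower. Bulk RNA cannot tell less RNA per cell from fewer cells that express a gene.

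The genes that rose were not spread evenly over the genome. All 5 members on chromosomes I and XII rose, with a median change of 0.64. Of the 35 on other chromosomes 3 rose and 2 fell, with a median change of 0.03. Over all tested genes the median change was 0.58 on chromosome I (66 of 95 rose), 0.68 on chromosome XII (425 of 511 rose) and -0.05 on the other chromosomes (12.4% rose and 19.7% fell). Acute loss of Ulp2 is known to be accompanied by extra copies of chromosomes I and XII. The dose of these chromosomes and the loss of Ulp2 cannot be told apart for the 5 genes in these libraries. With genes of both chromosomes left out of the fit, 3 members rose and 2 fell.

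**Figure D1:**
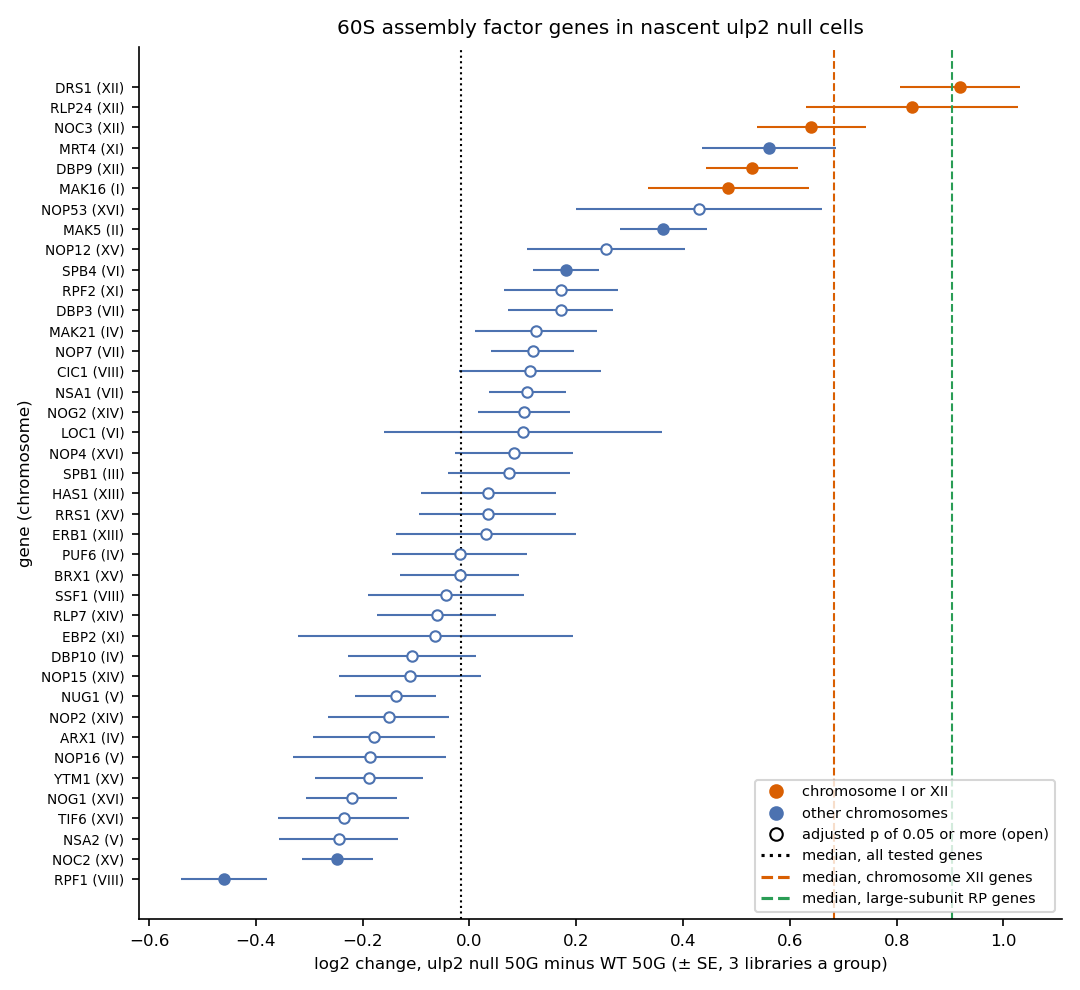
Change of each of the 40 members in ulp2 null 50G against WT 50G, as log2 change ± SE (3 libraries a group), ordered by size, with the chromosome in brackets. Filled points passed an adjusted p of 0.05. Orange points are genes of chromosomes I and XII, and they lie at 0.48 or above, whereas most blue points lie around the median of all tested genes (dotted line, -0.02) and left of the RP median (green line, 0.90).

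DRS1 (YLL008W), a DEAD-box helicase needed to mature the 25S rRNA, had the largest rise. It read 20.9, 24.0 and 25.4 FPKM in the 3 WT 50G libraries, against 40.8, 48.0 and 46.6 in ulp2 null 50G, so that the groups did not overlap. The log2 change was 0.92 ± 0.11 (SE), with an adjusted p of 9.39e-05. In passaged null cells DRS1 was back at 21.3, 24.4 and 26.4 FPKM, and in WT 500G it stood at 18.4, 23.0 and 20.3.

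DBP9 (YLR276C), another helicase of chromosome XII that acts on early 60S particles, moved in the same way. Its levels were 38.5, 31.9 and 33.4 FPKM in WT 50G, against 51.1, 47.3 and 52.5 in ulp2 null 50G, a log2 change of 0.53 ± 0.09 (adjusted p 6.66e-04). All 3 nascent null libraries lay above all others, including 32.5, 33.7 and 38.5 in ulp2 null 500G and 30.3, 32.0 and 31.0 in WT 500G.

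Of the 7 DEAD-box helicases, ATP-driven enzymes that remodel pre-rRNA, 4 rose in nascent null cells (57.1%), beside 18.7% of all tested genes. On chromosome XII 425 of 511 tested genes rose. Besides the 2 helicases on chromosome XII, those that rose were MAK5 on chromosome II and SPB4 on chromosome VI. MAK5 (YBR142W), which remodels the early particle with Ebp2, Nop16 and Rpf1, went from 11.9, 12.9 and 13.0 FPKM to 16.7, 17.6 and 15.2, a log2 change of 0.36 ± 0.08 (adjusted p 0.00482). SPB4 (YFL002C) went from 33.7, 32.5 and 34.3 FPKM to 37.9, 37.2 and 39.2, a log2 change of 0.18 ± 0.06 (adjusted p 0.0396). The SPB4 change was small beside a tight spread, and its call was lost when any 1 of the 6 libraries compared was left out (adjusted p up to 0.127). It was also lost under median-of-ratios scaling of the libraries (adjusted p 0.0548). The smallest change of the group was that of HAS1 (YMR290C), a helicase that serves both subunits, which read 18.9, 20.6 and 18.5 FPKM in WT 50G with 21.8, 18.5 and 19.2 in nascent null cells, a change of 0.03 ± 0.13 (adjusted p 0.865). DBP3 (YGL078C), which speeds cleavage in the spacer ITS1, changed by 0.17 ± 0.10 (adjusted p 0.204) and DBP10 (YDL031W), which works near the peptidyl transferase centre, by -0.11 ± 0.12 (adjusted p 0.534).

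The 3 Noc proteins pair up on successive particles, Mak21 (also called Noc1) with Noc2 first and Noc2 with Noc3 later. Their genes split. NOC3 (YLR002C, chromosome XII) rose from 15.4, 16.2 and 16.1 FPKM in WT 50G to 24.9, 25.9 and 25.2 in ulp2 null 50G, a log2 change of 0.64 ± 0.10 (adjusted p 6.19e-04). NOC2 (YOR206W, chromosome XV), its binding partner, read 28.2, 30.4 and 30.8 FPKM in WT 50G, against 25.1, 25.0 and 24.7 in ulp2 null 50G, a log2 change of -0.25 ± 0.07 (adjusted p 0.0138). Neither gene overlapped between the groups, but the NOC2 call was lost without WT 50G replicate 1 or without WT 50G replicate 2 (adjusted p up to 0.058) and under equal-sum scaling (-0.13, adjusted p 0.278). MAK21 (YDR060W), at 18.7, 22.5 and 22.6 FPKM in WT 50G with 24.0, 22.2 and 23.5 in nascent null cells, changed by 0.12 ± 0.11 (adjusted p 0.437).

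A similar split ran through the Nsa1 module, a set of proteins that sits on the solvent side of the early particle. MAK16 (YAL025C, chromosome I) stood at 25.1, 29.2 and 33.3 FPKM in WT 50G, against 37.4, 40.6 and 45.2 in ulp2 null 50G, a log2 change of 0.48 ± 0.15 (adjusted p 0.0271). That call was lost without WT 50G replicate 0 or 1 and without ulp2 null 50G replicate 1 or 2 (adjusted p up to 0.099). RPF1 (YHR088W, chromosome VIII) fell from 56.3, 58.6 and 67.1 FPKM to 42.4, 44.7 and 44.1, a log2 change of -0.46 ± 0.08 (adjusted p 0.00103). It was the largest fall among the members and stayed called with each library left out. NSA1 (YGL111W) changed by 0.11 ± 0.07 (adjusted p 0.278). SSF1 (YHR066W), a factor that joins next to this module, changed by -0.04 ± 0.15 (adjusted p 0.852). SSF1 has a near copy, SSF2, and their coding sequences share 92.1% of aligned bases with an identical run of 92 bases, so reads that map to 1 place only leave the split between them uncertain. SSF2 read 37.1, 35.7 and 36.7 FPKM in WT 50G, against 26.4, 27.5 and 25.7 in ulp2 null 50G, a log2 change of -0.45 ± 0.10 (adjusted p 0.005), whereas SSF1 read 10.5, 13.6 and 14.3 and 11.2, 12.3 and 13.5.

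**Figure D2:**
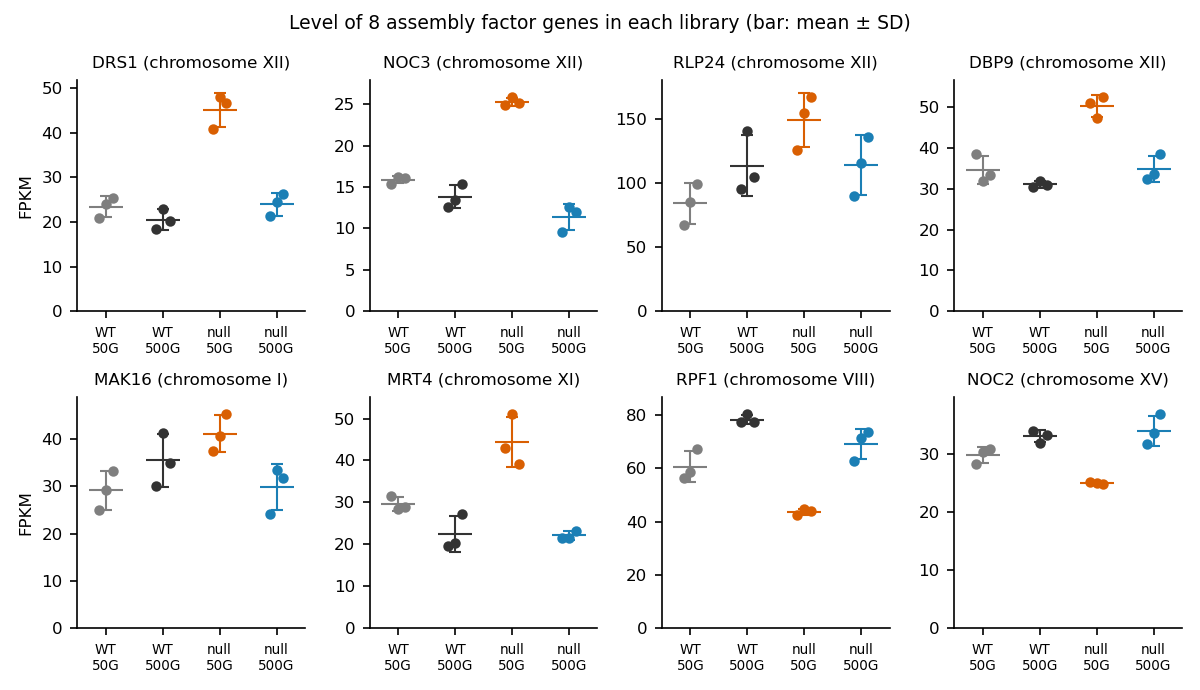
FPKM of 8 members in each of the 12 libraries (points), with the mean and SD of each group of 3 (bars), on linear axes from 0. The genes of chromosomes I and XII and MRT4 were high in ulp2 null 50G, as in NOC3 with 24.9 to 25.9 FPKM against 15.4 to 16.2 in WT 50G. RPF1 and NOC2 were low in the same 3 libraries.

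The 3 members RLP24, MRT4 and RLP7 resemble an RP, and the first 2 hold its place on the particle until it is exchanged. RLP24 (YLR009W, chromosome XII) is the placeholder for Rpl24, which replaces it after the particle reaches the cytoplasm. It stood at 67.7, 85.2 and 99.7 FPKM in WT 50G, against 126, 155 and 167 in ulp2 null 50G, a log2 change of 0.83 ± 0.20 (adjusted p 0.00721). MRT4 (YKL009W, chromosome XI) holds the place of the stalk protein P0, the product of RPP0. It stood at 31.6, 28.4 and 28.9 FPKM in WT 50G, against 43.0, 51.0 and 39.2 in ulp2 null 50G, a log2 change of 0.56 ± 0.13 (adjusted p 0.00504). This was the largest rise of a member outside chromosomes I and XII, and the groups did not overlap. RLP7 (YNL002C), which resembles Rpl7 and binds the spacer ITS2, stood at 77.1, 86.4 and 86.0 FPKM and at 81.3, 77.7 and 79.8, a change of -0.06 ± 0.11 (adjusted p 0.718).

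The 3 factors were also set against the RP genes they resemble. The log2 ratio of RLP24 to the summed FPKM of RPL24A and RPL24B was -3.40 ± 0.118 in WT 50G (SD, n = 3) and -3.58 ± 0.163 in ulp2 null 50G, with overlapping libraries (exact two-sided permutation test, p = 0.3, adjusted p = 0.5 over 15 comparisons). The ratio of MRT4 to RPP0 was -4.69 ± 0.0492 in WT 50G, as against -5.23 ± 0.261 in ulp2 null 50G (exact permutation p = 0.1, adjusted p = 0.188), and it was also lower in WT 500G at -5.34 ± 0.338 and in ulp2 null 500G at -5.33 ± 0.134. The ratio of RLP7 to RPL7A and RPL7B was -1.68 ± 0.032 in WT 50G, -2.57 ± 0.0752 in ulp2 null 50G, -1.92 ± 0.0619 in WT 500G and lastly -2.08 ± 0.0792 in ulp2 null 500G (each exact permutation p = 0.1 against WT 50G). No library of ulp2 null 50G overlapped WT 50G for MRT4 or RLP7, but 3 libraries against 3 cannot give an exact p below 0.1, so these differences could not pass the threshold. RPP0 itself went from 835, 788 and 749.5 FPKM in WT 50G to 1853, 1583 and 1655 in ulp2 null 50G, a log2 change of 1.10 ± 0.09 (limma, adjusted p 4.31e-06). Between the same groups RPL24A went from 410, 492 and 519 FPKM to 828, 949 and 876, a change of 0.90 ± 0.13 (adjusted p 2.44e-04). RPL24B went from 353, 456 and 447 FPKM to 852, 968 and 910, a change of 1.12 ± 0.14 (adjusted p 1.25e-04). RPL7A went from 207, 242 and 232 FPKM to 394, 393 and 420, a change of 0.83 ± 0.13 (adjusted p 6.19e-04). RPL7B went from 40.9, 44.3 and 42.2 FPKM to 69.2, 71.7 and 84.4, a change of 0.80 ± 0.11 (adjusted p 2.16e-04). A ratio alone shows that 2 genes moved unequally, not which of them changed. In the values of the single genes RPL7A and RPL7B rose, whereas RLP7 changed by -0.06 ± 0.11.

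**Figure D3:**
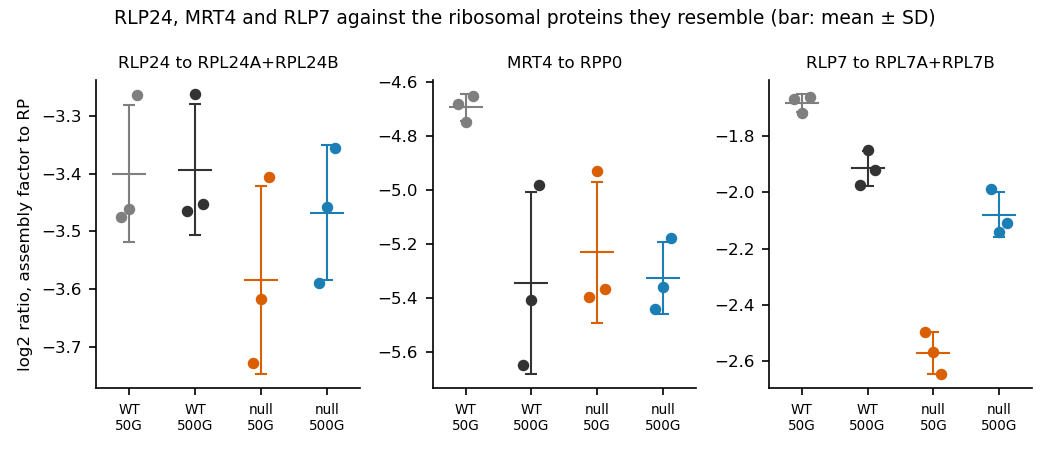
log2 ratio of RLP24, MRT4 and RLP7 to the RP gene or gene pair it resembles, for each library (points) with the group mean and SD (bars, n = 3), each panel on its own axis. For RLP7 the 3 ulp2 null 50G libraries (-2.50 to -2.65) lie below all others, for MRT4 the 3 WT 50G libraries (-4.65 to -4.75) lie above all others, and for RLP24 the groups overlap.

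The other 2 late factors were lower in the means of nascent null cells without passing the test. TIF6 (YPR016C), which keeps the 60S subunit from joining the 40S too early, changed by -0.24 ± 0.12 (adjusted p 0.162), and the export factor ARX1 (YDR101C) by -0.18 ± 0.11 (adjusted p 0.256). ARX1, the smallest change of the late factors, read 22.9, 19.1 and 18.7 FPKM in WT 50G with 21.2, 15.9 and 16.3 in nascent null cells, and the groups overlapped. In the remaining role groups 0 members passed the test in this comparison (limma), and the values of their genes follow. Of the A3 factors and ITS2 binders, which fold the domain around the 5.8S rRNA, YTM1 (YOR272W) had the largest change, from 24.2, 22.9 and 21.9 FPKM to 21.8, 20.1 and 18.4, at -0.19 ± 0.10 (adjusted p 0.174). ERB1 (YMR049C), its partner in a complex with Nop7, had the smallest, with 20.8, 21.3 and 20.3 FPKM and 25.3, 19.0 and 20.1, at 0.03 ± 0.17 (adjusted p 0.912). NOP7 (YGR103W) changed by 0.12 ± 0.08, NOP15 (YNL110C) by -0.11 ± 0.13 and CIC1 (YHR052W) by 0.11 ± 0.13. Among the GTPases, which act as checkpoints on the particle, NOG1 (YPL093W) stood at 29.9, 26.3 and 26.5 FPKM and at 23.5, 24.5 and 22.5, a change of -0.22 ± 0.09 (adjusted p 0.0666). NUG1 (YER006W) changed by -0.14 ± 0.08 (adjusted p 0.185). NOG2 (YNR053C) read 24.9, 26.6 and 25.2 FPKM and 24.9, 29.4 and 28.3, a change of 0.10 ± 0.09 (adjusted p 0.394).

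NOP2 and SPB1 encode rRNA methyltransferases. NOP2 (YNL061W) read 46.9, 48.6 and 51.2 FPKM in WT 50G with 40.2, 43.9 and 48.0 in nascent null cells, a change of -0.15 ± 0.11 (adjusted p 0.335), and SPB1 (YCL054W) read 16.3, 18.2 and 17.1 with 18.8, 17.9 and 17.7, a change of 0.07 ± 0.11 (adjusted p 0.663). RPF2 and RRS1 encode the pair that brings the 5S rRNA with its proteins into the particle. RPF2 (YKR081C) ran from 38.3 to 42.6 FPKM in WT 50G and read 48.2, 44.9 and 43.5 in nascent null cells, a change of 0.17 ± 0.11 (adjusted p 0.244), and RRS1 (YOR294W) read 44.7, 40.1 and 48.5 with 43.3, 49.2 and 44.0, a change of 0.03 ± 0.13 (adjusted p 0.868). Of the 9 other nucleolar factors NOP53 (YPL146C), which calls the exosome to ITS2, had the largest change. It stood at 54.6, 69.1 and 77.7 FPKM in WT 50G, against 86.8, 96.1 and 86.8 in ulp2 null 50G, but its spread was wide and the change of 0.43 ± 0.23 missed the threshold (adjusted p 0.175). NOP12 (YOL041C), an RNA-binding protein of the 5.8S domain, changed by 0.26 ± 0.15 (adjusted p 0.209). The others, which include the RNA-binding protein NOP4 (YPL043W), LOC1 (YFR001W), PUF6 (YDR496C), EBP2 (YKL172W), BRX1 (YOL077C), NOP16 (YER002W) and NSA2 (YER126C), ranged from -0.25 for NSA2 to 0.10 for LOC1. The smallest change was that of PUF6, which read 22.1, 21.6 and 22.4 FPKM in WT 50G with 23.8, 19.9 and 21.7 in nascent null cells.

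The 35 members outside chromosomes I and XII followed neither the RP genes nor the chromosomes with raised transcripts. Their median deviation from the 12-library mean was -0.03 ± 0.0569 in WT 50G, as against -0.01 ± 0.0391 in ulp2 null 50G (SD, n = 3). For the 5 on chromosomes I and XII it was -0.20 ± 0.136 and 0.50 ± 0.0673, and for the large-subunit RP genes -0.34 ± 0.0541 and 0.56 ± 0.0466. These are descriptions of lists, and no test compared one list with another.

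**Figure D4:**
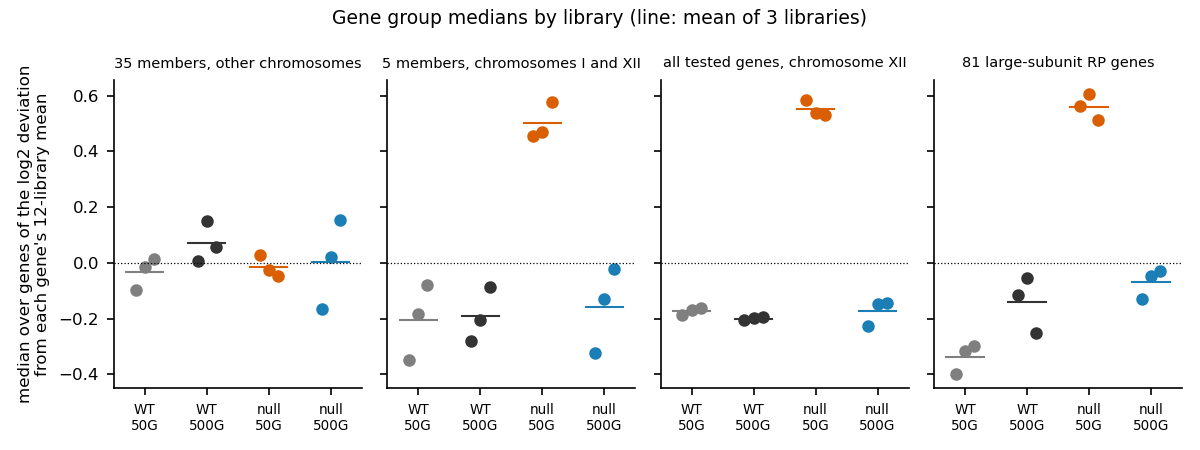
Median over the genes of a list of the log2 deviation from each gene's mean over 12 libraries, for each library (points), with the mean of 3 libraries (lines). The 5 members on chromosomes I and XII, all chromosome XII genes and the RP genes are high in the 3 ulp2 null 50G libraries, whereas the 35 other members stay between -0.16 and 0.16 in all 12 libraries.

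To describe passaging in cells with Ulp2, WT 500G was compared with WT 50G. Of the members 8 rose and 1 fell, where 21.4% of all tested genes rose and 19.2% fell. The median change was 0.14, against 0.01 for all tested genes, a difference of 0.13 that was 0.12 under equal-sum scaling. Under that scaling no member was called higher and 14 were called lower, where 329 of 6576 tested genes were higher and 3225 lower. With the values as deposited, 10 members were higher and 3 lower at an unadjusted p under 0.05 (limma), beside 3259 of all tested genes. These directions thus depend on the scaling of the libraries. LOC1 (YFR001W), an RNA-binding protein also known for ASH1 mRNA localisation, had the largest rise. It stood at 88.1, 119 and 127 FPKM in WT 50G and at 147, 266 and 200.3 in WT 500G, a log2 change of 0.85 ± 0.26 (adjusted p 0.0245), with no overlap between the groups. Its spread was the widest of the members, and the call was lost without WT 50G replicate 0, WT 500G replicate 1 or WT 500G replicate 2 (adjusted p up to 0.0961).

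NOP16 (YER002W), a nucleolar protein of the early particle, rose from 162, 199 and 199.5 FPKM to 230.5, 323 and 278, a log2 change of 0.56 ± 0.14 (adjusted p 0.0105). RPF1 rose from 56.3, 58.6 and 67.1 FPKM to 77.5, 80.3 and 77.2, a log2 change of 0.37 ± 0.08 (adjusted p 0.00423). NOP16 and RPF1 were the 2 calls that held with each library left out, but under equal-sum scaling NOP16 changed by 0.19 (adjusted p 0.33) and RPF1 by -0.00198 (adjusted p 0.993). DBP10 went from 28.4, 32.9 and 32.7 FPKM to 38.6, 42.8 and 45.6, a log2 change of 0.42 ± 0.12 (adjusted p 0.0169), and lost its call without WT 50G replicate 0 or WT 500G replicate 2 (adjusted p up to 0.0627). DBP3 (0.27), NOP7 (0.22), NUG1 (0.21) and SPB4 (0.18) also rose, with adjusted p-values from 0.0411 to 0.0478 that were lost on leaving out any of 7 to 9 libraries, and all 4 turned negative under equal-sum scaling.

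MRT4 was the member that fell with passaging of WT cells. Its level went from 31.6, 28.4 and 28.9 FPKM in WT 50G to 19.7, 20.4 and 27.4 in WT 500G, a log2 change of -0.40 ± 0.13 (adjusted p 0.0282). Replicate 2 of WT 500G lay near the WT 50G libraries, and the call was lost without any 1 of the WT 50G libraries and without WT 500G replicate 0 or 1 (adjusted p up to 0.0975).

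The passaged null cells were then compared with the same WT 50G libraries, which both earlier comparisons also use. Of the members 4 rose and 5 fell, where 16.1% of all tested genes rose and 17.8% fell, with a median change of 0.02. The library titles give only a number, but same-numbered libraries of these 2 groups deviated together weakly (correlations of 0.115 to 0.141). With the replicate number as a block 11 members rose and 6 fell, where 1430 of 6572 tested genes rose and 1533 fell. Without ulp2 null 500G replicate 0, the library that stood apart, 10 rose and 3 fell and the median change was 0.16. Equal-sum scaling left none higher and 14 lower, where 425 of 6576 tested genes were higher and 2658 lower. With the values as deposited, 9 members were higher and 5 lower at an unadjusted p under 0.05 (limma), beside 2908 of all tested genes. Directions of the list therefore turn on 1 library and on the scaling.

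NOP7, the scaffold of a complex with Erb1 and Ytm1, rose from 49.1, 54.1 and 54.8 FPKM in WT 50G to 62.6, 65.1 and 73.0 in ulp2 null 500G, a log2 change of 0.34 ± 0.08 (adjusted p 0.00709). YTM1, a partner in that complex, read 24.2, 22.9 and 21.9 FPKM in WT 50G, against 16.5, 17.6 and 17.9 in ulp2 null 500G, a log2 change of -0.39 ± 0.10 (adjusted p 0.0133), and the third partner ERB1 changed by -0.02 ± 0.17 (adjusted p 0.954). The NOP7 and YTM1 calls each held with every library left out in turn, although NOP7 changed by 0.08 (adjusted p 0.421) under equal-sum scaling. NOC3 fell to 9.59, 12.6 and 11.9 FPKM, a log2 change of -0.46 ± 0.10 (adjusted p 0.0066), and this call held in all 12 fits as well.

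MAK5 stood at 15.7, 15.6 and 16.8 FPKM, a log2 change of 0.33 ± 0.08 (adjusted p 0.0104), which equal-sum scaling reduced to 0.09 (adjusted p 0.488). DBP3 rose by 0.31 ± 0.10 (adjusted p 0.0314) to 57.3, 65.4 and 68.4 FPKM and SPB4 by 0.21 ± 0.06 (adjusted p 0.0244), and each lost its call without 4 of the libraries (adjusted p up to 0.107), while SPB4 turned to -0.04 under equal-sum scaling. NOP12 read 21.9, 25.2 and 25.0 FPKM in WT 50G, against 12.7, 18.0 and 20.8 in ulp2 null 500G, a log2 change of -0.49 ± 0.15 (adjusted p 0.0273). Replicate 0 was the lowest of the 3, and without it the change was -0.30 and lost its call, as it also did without WT 50G replicate 1 or 2 (adjusted p up to 0.0855). PUF6, a translational repressor of ASH1 mRNA that also binds pre-60S particles, read 22.1, 21.6 and 22.4 FPKM in WT 50G, against 12.5, 18.1 and 17.5 in ulp2 null 500G, a log2 change of -0.45 ± 0.13 (adjusted p 0.0183) that was lost without WT 50G replicate 2 (adjusted p 0.0543) and was -0.29 without ulp2 null 500G replicate 0 (adjusted p 0.03). MRT4 stood at 21.6, 21.5 and 23.2 FPKM, a log2 change of -0.40 ± 0.13 (adjusted p 0.0303), lost without any 1 of the 6 libraries compared (adjusted p up to 0.091).

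To follow the null cells through passaging, ulp2 null 500G was compared with ulp2 null 50G. This gave the most member calls of the 5 comparisons, as 7 rose and 9 fell, where 24.5% of all tested genes rose and 29.7% fell. The median change was -0.0017, against -0.60 for the large-subunit RP genes, of which 65 of 81 fell. Equal-sum scaling gave 1 member higher and 23 lower, where 599 of 6576 tested genes were higher and 3611 lower. Without ulp2 null 500G replicate 0 the member counts were 10 and 8. With chromosomes I and XII left out 7 rose and 5 fell. Of the 16 calls 9 held with each library left out.

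NOC3 had the largest fall, from 24.9, 25.9 and 25.2 FPKM to 9.59, 12.6 and 11.9, a log2 change of -1.10 ± 0.10 (adjusted p 8.66e-06). MRT4 fell from 43.0, 51.0 and 39.2 FPKM to 21.6, 21.5 and 23.2, a change of -0.97 ± 0.13 (adjusted p 9.22e-05), and DRS1 from 40.8, 48.0 and 46.6 FPKM to 21.3, 24.4 and 26.4, a change of -0.88 ± 0.11 (adjusted p 7.61e-05). In all 3 genes every library of the passaged null cells lay below every library of the nascent ones. NOP12 fell too, with a change of -0.74 ± 0.15 (adjusted p 0.00162), as did DBP9 with -0.52 ± 0.09 (adjusted p 5.00e-04) and NSA1 with -0.26 ± 0.07 (adjusted p 0.0104), each in all 12 fits. MAK16 changed by -0.46 ± 0.15 (adjusted p 0.0242), PUF6 by -0.43 ± 0.13 (adjusted p 0.0137) and RPF2 by -0.36 ± 0.11 (adjusted p 0.0149). The PUF6 and RPF2 calls were lost without ulp2 null 50G replicate 0 (adjusted p 0.0515 and 0.0521), and the MAK16 call without ulp2 null 50G replicate 1 or 2 or ulp2 null 500G replicate 0 (adjusted p up to 0.0868). Without ulp2 null 500G replicate 0, PUF6 changed by -0.27 (adjusted p 0.0251) and RPF2 by -0.24 (adjusted p 0.0398). RLP24, at 90.1, 116 and 136 FPKM, changed by -0.40 ± 0.20 and did not pass (adjusted p 0.114). NOC3, DRS1, DBP9 and RLP24 lie on chromosome XII, and MAK16 on chromosome I. On chromosome XII 404 of 511 tested genes fell and 23 rose, with a median of -0.73. On chromosome I 65 of 95 fell and 6 rose, with a median of -0.52. On the other chromosomes 24.8% fell and 26.4% rose. The study reports that the extra copies of both chromosomes disappeared with extended passaging. The part of chromosome dose in these falls was not tested.

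RPF1 and NOC2, the 2 members that fell in nascent null cells against WT 50G, rose between the null groups. RPF1 went from 42.4, 44.7 and 44.1 FPKM to 62.6, 71.3 and 73.5, a log2 change of 0.65 ± 0.08 (adjusted p 6.37e-05), and NOC2 from 25.1, 25.0 and 24.7 FPKM to 31.6, 33.5 and 36.8, a change of 0.43 ± 0.07 (adjusted p 3.20e-04). NOP16 rose from 147, 181 and 163 FPKM to 204, 239 and 266, a change of 0.52 ± 0.14 (adjusted p 0.0104). All 3 held in the 12 fits, but under equal-sum scaling NOC2 changed by 0.06 (adjusted p 0.53) and NOP16 by 0.15 (adjusted p 0.421), whereas RPF1 kept its call. DBP10 (0.34), NUG1 (0.23), NOG1 (0.23) and NOP7 (0.22) also rose, each lost without at least 3 of the libraries (adjusted p up to 0.165) and each negative under equal-sum scaling. This comparison and that of nascent null cells with WT 50G share the ulp2 null 50G libraries.

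**Figure D5:**
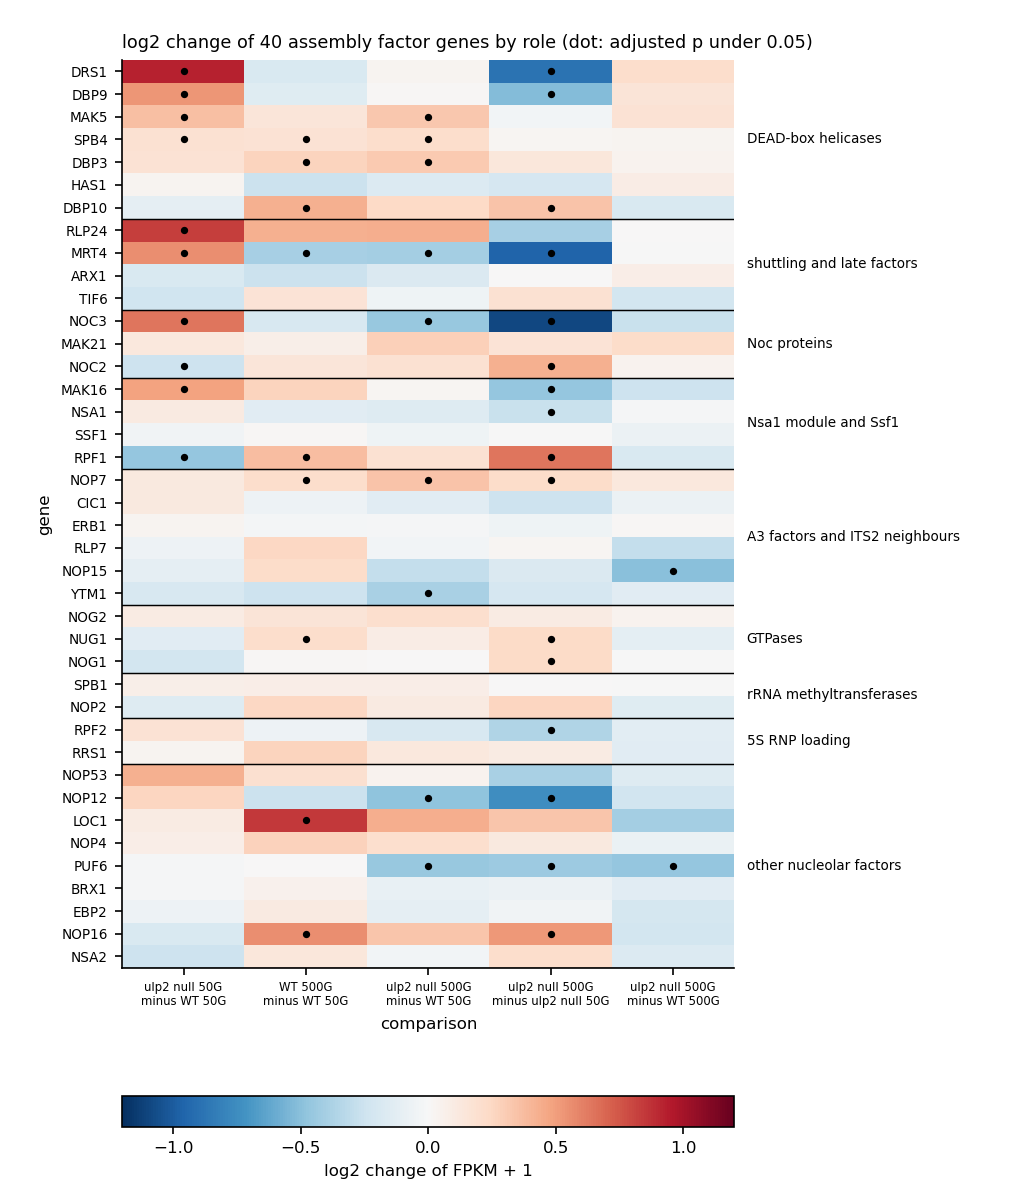
log2 change of FPKM + 1 for the 40 members (rows, grouped by role) in 5 comparisons (columns), red for higher and blue for lower, with a dot where the adjusted p was under 0.05. The columns share libraries. NOC3, MRT4 and DRS1 are red in the first column and blue in the fourth, and the last column holds 2 dots, on NOP15 and PUF6.

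The last comparison sets passaged null cells against passaged WT cells. No member rose and 2 fell (limma), where 4.9% of all tested genes rose and 6.06% fell. At an unadjusted p under 0.05 there were 5 members, of which 0 were higher, beside 1745 of 6572 tested genes in either direction. The median change was -0.10. NOP15 (YNL110C), an RNA-binding protein on ITS2, read 62.0, 83.2 and 74.4 FPKM in WT 500G, against 43.1, 50.0 and 61.4 in ulp2 null 500G, a log2 change of -0.50 ± 0.13 (adjusted p 0.0354). PUF6 read 21.2, 24.0 and 21.4 FPKM and 12.5, 18.1 and 17.5, a log2 change of -0.46 ± 0.13 (adjusted p 0.041). Neither pair of groups overlapped, but the NOP15 call was lost without 7 of the 12 libraries (adjusted p up to 0.122) and the PUF6 call without 9 (adjusted p up to 0.131), ulp2 null 500G replicate 0 among them in both cases. Without that library PUF6 changed by -0.30 (adjusted p 0.0662) and 0 members fell. Equal-sum scaling also gave 0 lower members, where 107 of 6576 tested genes were lower.

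Whether passaging moved a gene differently in null and WT cells was tested as an interaction, the change from 50G to 500G in null cells minus that in WT cells. At an unadjusted p under 0.05 it gave 10 members, of which 2 were higher, beside 2238 of 6572 tested genes in either direction (limma). By adjusted p it was called lower for 4 members and higher for 0, where 13% of all tested genes were lower and 9.74% higher. The 4 were NOC3 at -0.90 ± 0.15 (adjusted p 0.00134), MAK16 at -0.73 ± 0.21 (adjusted p 0.0305), DRS1 at -0.70 ± 0.16 (adjusted p 0.00875) and MRT4 at -0.57 ± 0.18 (adjusted p 0.0415). NOC3, MAK16 and DRS1 lie on chromosomes I and XII, where the median interaction of all tested genes was -0.63 and -0.69. The NOC3 and DRS1 calls held in all 12 fits, whereas MAK16 was lost without 7 libraries (adjusted p up to 0.0746) and MRT4 without 9 (adjusted p up to 0.0966). MRT4 also lost its call without a filter, under median-of-ratios and equal-sum scaling (adjusted p 0.0533 and 0.0789) and with chromosomes I and XII left out of the fit. That last setting removes the other 3 genes, so its count of lower members was 0, while the MRT4 value stayed at -0.57 (adjusted p 0.0521). Without ulp2 null 500G replicate 0 the interaction was called higher for 2 members and lower for 2. RLP24 (-0.83 ± 0.28, adjusted p 0.0582), DBP9 (-0.37 ± 0.12, adjusted p 0.0503) and NOC2 (0.29 ± 0.09, adjusted p 0.0527) lay just outside the threshold. Over the 4 groups together 21 members differed in limma's F-test (52.5%), against 66.3% of all tested genes.

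Another 53 genes of 60S assembly, not among the 40, were listed beside them. In nascent null cells 13 of these rose and 5 fell, with a median of 0.06. Of the 55 40S assembly factors 12 rose and 2 fell, with a median of 0.10. Shares that rose were 24.5% and 21.8%, beside 18.7% of all tested genes, and shares that fell were 9.43% and 3.64%, beside 18.1%. With passaging of the null cells 4 of the 53 rose (7.55%) and 21 fell (39.6%), with a median of -0.24. Of the 40 members 7 rose (17.5%) and 9 fell (22.5%), with a median of -0.0017. Over all tested genes 24.5% rose and 29.7% fell. The interaction was lower for 10 of the 53 (18.9%) and for 4 of the 40 (10%), beside 13% of all tested genes. No test compared the lists. GRC3, a polynucleotide kinase that trims ITS2, went from 5.22 ± 0.107 FPKM in WT 50G (SD, n = 3) to 17.7 ± 1.64 in ulp2 null 50G, a log2 change of 1.58 ± 0.11 (adjusted p 3.03e-06). BMT6, an rRNA methyltransferase, rose by 1.28 ± 0.18 (adjusted p 2.59e-04). Both lie on chromosome XII, as do AFG2 (0.89 ± 0.10, adjusted p 4.92e-05), the ATPase that strips Rlp24 from the particle, and REA1 (1.09 ± 0.07, adjusted p 1.59e-06), the large ATPase also called Mdn1. SSF2, the near copy of SSF1, had the largest fall among the called genes of this list (adjusted p 0.0561 under equal-sum scaling), and NOP8 on chromosome XV, at -0.33 ± 0.12 (adjusted p 0.0458), lost its call without any of 8 libraries (adjusted p up to 0.168). RSA1, a factor of snoRNP and 60S assembly on chromosome XVI, stood at 51.0 ± 4.62 FPKM in WT 50G, against 49.2 ± 3.79 in ulp2 null 50G. After passaging it stood at 118 ± 14.3 FPKM in WT cells and 108 ± 13.1 in null cells, a log2 change of 1.19 ± 0.12 in the WT cells (adjusted p 2.91e-05).

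Of 15 regulators of ribosome genes 4 rose and 3 fell in nascent null cells, shares of 26.7% and 20% beside 18.7% and 18.1% of all tested genes. IFH1, the coactivator of RP genes, lies on chromosome XII and rose by 1.27 ± 0.22 (adjusted p 9.79e-04), from 49.3 ± 8.06 FPKM to 119 ± 9.33. DOT6, a repressor that binds PAC, lies on chromosome V and rose by 0.68 ± 0.14 (adjusted p 0.00329), from 223 ± 18.9 FPKM to 356 ± 8.20. STB3, which binds RRPE, fell from 91.6 ± 7.11 FPKM to 69.8 ± 8.17, a log2 change of -0.39 ± 0.14 (adjusted p 0.0466), and stood at 129 ± 22.2 in ulp2 null 500G, but the call was lost without any of 7 libraries (adjusted p up to 0.146). ABF1, a general regulatory factor, fell with a change of -0.59 ± 0.15 (adjusted p 0.0109), which equal-sum scaling brought to -0.47 (adjusted p 0.0694). CRF1, a corepressor at RP genes, rose with passaging from 36.8 ± 5.93 FPKM in WT 50G to 83.8 ± 3.72 in WT 500G, a log2 change of 1.18 ± 0.11 (adjusted p 2.80e-05), and stood at 76.1 ± 7.06 in ulp2 null 500G. A part of any of these regulators in the levels of the members was not tested.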

How the data were processed

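RNA was isolated from mid-exponential cultures, and 12 strand-specific TruSeq libraries were made, 3 for each of 4 groups taken from the labels (the labels name polyA RNA, the methods total RNA). Per the labels and methods, the authors mapped trimmed paired reads with TopHat2 2.1.1 to the R64 genome, retained only uniquely mapped reads and computed FPKM with Cufflinks 2.2.1. The deposited FPKM values are the unit used here. Unique mapping affects genes with near copies. Low values did not fall on steps of whole reads (the fullest step held 6.32% of low-value ratios in the median pair of libraries), so depth per library is unknown and no counting interval is given.

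Of 7126 genes, 6048 matched the RefSeq annotation of R64 by systematic name and 31 by symbol. Genes with a mean of at least 1 FPKM over 12 libraries (6572) were fitted as log2(FPKM + 1) with limma 3.58.1 in R 4.3.3, with all 4 groups in 1 model, a trended empirical Bayes step and Benjamini-Hochberg adjustment over all tested genes. An adjusted p under 0.05 was called. Ratios were tested by exact permutation (scipy 1.17.1). Coding sequences were aligned with Biopython 1.88. The fit was tested on simulated data. The library titles give only a number and name no pairs. Between ulp2 null 500G and WT 50G, correlations of same-numbered libraries' deviations were 0.141, 0.115 and 0.135. Alternatives were another pseudocount (0.1), no filter or a minimum of 10 FPKM, only the groups compared, a replicate block, 2 scalings, no trend, an adjusted p under 0.01, no genes of chromosomes I and XII, and each library left out.

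Per-library values are given for the 3 members with the largest change in each direction in each comparison among called members whose library pairs all moved 1 way, the largest and smallest change of each role group, members on chromosomes I and XII, the placeholder pairs and SSF1 with SSF2 (for RPF2 in WT 50G, the range). Outside the members, the 2 largest called changes in each direction were eligible in each of 2 other lists. The members and lists were chosen with earlier results of these data known.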

Additional observations from a re-analysis of the deposited data

Results flagged for a closer look

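Passaging moved 4 members differently in null and in WT cells, by a test of the difference itself (the interaction in limma, adjusted p under 0.05), that is 10% of the 40 where 13% of all tested genes were lower. The MAK16 call was lost without 7 libraries, and the MRT4 call without 9, under median-of-ratios and equal-sum scaling and without a filter (adjusted p 0.0533, 0.0789 and 0.058). NOC3 had an interaction of -0.90 ± 0.15 (SE, adjusted p 0.00134): it fell from 25.3 ± 0.486 FPKM in ulp2 null 50G (SD, n = 3) to 11.4 ± 1.59 in ulp2 null 500G, against 15.9 ± 0.470 and 13.8 ± 1.41 in the WT groups. DRS1 had -0.70 ± 0.16 (adjusted p 0.00875), from 45.2 ± 3.84 FPKM to 24.0 ± 2.59 in null cells and from 23.4 ± 2.32 to 20.6 ± 2.31 in WT cells. MAK16 had -0.73 ± 0.21 (adjusted p 0.0305), from 41.1 ± 3.89 FPKM to 29.8 ± 4.88 and from 29.2 ± 4.10 to 35.4 ± 5.51. MRT4 had -0.57 ± 0.18 (adjusted p 0.0415), from 44.4 ± 6.03 FPKM to 22.1 ± 0.969 and from 29.6 ± 1.72 to 22.5 ± 4.22. MRT4 is the member of the 4 that lies on neither chromosome I nor XII. The median interaction of all tested genes was -0.63 on chromosome I and -0.69 on chromosome XII.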

How the results depend on the processing

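Counts of members called are given as higher and lower. Equal-sum scaling, over genes that are not RP genes, gave 11 and 1 in nascent null cells against WT 50G, 0 and 14 in WT 500G, the same counts in ulp2 null 500G against WT 50G, 1 and 23 between the null groups and 0 and 0 between the 500G groups. Of 6576 tested genes that scaling called 1551 and 666, 329 and 3225, and 425 and 2658 in the comparisons with WT 50G, in that order. Between the null groups it called 599 and 3611, and between the 500G groups 482 and 107. Under it 10 calls changed sign: in WT 500G against WT 50G NOP7 (-0.15), RPF1 (-0.00198), NUG1 (-0.16), SPB4 (-0.19) and DBP3 (-0.098), in ulp2 null 500G against WT 50G SPB4 (-0.044), and between the null groups NOP7 (-0.15), NOG1 (-0.14), NUG1 (-0.14) and DBP10 (-0.022). Median-of-ratios scaling gave 2 lower in WT 500G, 7 higher in ulp2 null 500G against WT 50G and 2 higher in the interaction. An adjusted p under 0.01 left 1 lower in nascent null cells, 1 and 0 in WT 500G, 1 each way in ulp2 null 500G against WT 50G, 2 and 5 between the null groups, 0 lower between the 500G groups and 2 lower in the interaction. Fitting the compared groups alone gave 5 and 0 in WT 500G, 3 lower in ulp2 null 500G against WT 50G, 3 higher between the null groups and 0 lower between the 500G groups. Leaving out chromosomes I and XII gave 3 higher in nascent null cells, 5 lower between the null groups and 0 lower in the interaction. Without a trend 5 rose in WT 500G. Without a filter 1 fell between the 500G groups and 1 rose in the interaction, as 1 did with a minimum of 10 FPKM.

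With the replicate block the counts were 13 and 3 in WT 500G, 11 higher in ulp2 null 500G against WT 50G, 1 and 4 between the 500G groups, and 2 and 7 in the interaction. Of 6572 tested genes the block gave 1856 and 1567 in WT 500G and 1430 higher in ulp2 null 500G against WT 50G. Between the 500G groups it gave 569 and 856, and in the interaction 943 and 1158. Correlations of same-numbered libraries ran from -0.0664 to 0.157 in the comparisons other than ulp2 null 500G with WT 50G. In ulp2 null 500G with WT 50G they ran from 0.115 to 0.141. Of 6 libraries a comparison, 0 to 4 correlated best with the library of their own number in the other comparisons. In ulp2 null 500G with WT 50G 6 did. The titles give only a number, so a shared batch cannot be read from them. With 1 library left out the counts ranged from 6 to 8 higher and 1 to 3 lower in nascent null cells, 3 to 11 higher with 0 to 2 lower in WT 500G, 2 to 10 with 2 to 5 in ulp2 null 500G against WT 50G, 3 to 10 and 7 to 9 between the null groups, 0 higher and 0 to 2 lower between the 500G groups, and 0 to 2 and 2 to 6 in the interaction. The cause of these changes was not tested. Depth per library is unknown, so the share of the spread that comes from depth cannot be stated.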
